A study of Mus musculus with 714 samples.

Results

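The receptors of the ovarian steroids in the mouse uterus, Esr1 (oestrogen receptor alpha) and Pgr (the progesterone receptor), are described here in single cells of 5 ages. They are 2 of the 12479 gene rows of the deposited table, chosen by name. The table holds 714 single cells of 960 sorted for CD326, the epithelial surface protein EpCAM, from the uterus of ICR mice at postnatal day (pnd) 0, 7, 14, 28 and 56. No treatment, genotype or hormone state is labelled, and no animal, litter or pool. Each age is therefore 1 sample of many cells. No difference below has a replicate check or a p-value, and every interval is an exact 95% interval that covers counting error only.

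Cells were kept in 2 classes. Muscle-marked cells had 5 or more counts summed over Cnn1, Des, Myl9 and Mylk, genes of the contractile apparatus and cytoskeleton of smooth muscle. They numbered 2, 8, 39, 8 and 1 over the 5 ages, 58 in all. The other cells, 91.9% of the 714, are called epithelial here. They were 98.8%, 97.004%, 77.5%, 85.7% and 97.8% of the cells of the 5 ages, with 48 cells at pnd28 and 44 at pnd56. Their median counts per cell were 3026, 2492, 1794, 1568 and 1622, so the older cells were read less deeply. Of 11 epithelial markers 11, 10, 10, 10 and 8 were counted in them, with 0.949%, 0.908%, 1.35%, 0.873% and 0.994% of all counts, and Krt18, a keratin of simple epithelia, led at each age. Krt8, its usual partner, had no count at pnd7 and pnd56. Blocks of 96 consecutive cell titles, called runs here, formed a technical split: 2 runs at pnd0, 3 at pnd7, 3 at pnd14 and 1 each at pnd28 and pnd56. What a block stands for is not labelled, and since each run holds cells of 1 age, run and age cannot be told apart.

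Esr1 and Pgr encode nuclear receptors, proteins that bind a steroid and then act as transcription factors on DNA. In the adult mouse uterus oestrogen acting through ESR1 drives epithelial growth and secretion, and progesterone acting through PGR opposes that growth and prepares the tissue for an embryo. Pgr is itself a textbook target of ESR1. Both receptors are also present in uterine stroma and smooth muscle.

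The RefSeq promoter windows of both genes, on GRCm38.p6, are shown because ESR1 binds DNA at pairs of the 5-base site GGTCA, so that a reader can see where this site stands in each window. A window runs from 250 bases before to 50 after the annotated start. The site was searched on both strands (GGTCA or TGACC) and is printed in capitals. The windows are those of Pgr at chr9:8899583-8899882 (plus strand) and of Esr1 at chr10:4611739-4612038 (plus strand).
Pgr: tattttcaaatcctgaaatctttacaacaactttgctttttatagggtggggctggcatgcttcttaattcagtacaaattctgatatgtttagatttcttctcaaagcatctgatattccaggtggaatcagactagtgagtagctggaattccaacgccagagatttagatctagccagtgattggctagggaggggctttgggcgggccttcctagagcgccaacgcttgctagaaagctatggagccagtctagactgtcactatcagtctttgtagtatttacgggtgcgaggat
Esr1: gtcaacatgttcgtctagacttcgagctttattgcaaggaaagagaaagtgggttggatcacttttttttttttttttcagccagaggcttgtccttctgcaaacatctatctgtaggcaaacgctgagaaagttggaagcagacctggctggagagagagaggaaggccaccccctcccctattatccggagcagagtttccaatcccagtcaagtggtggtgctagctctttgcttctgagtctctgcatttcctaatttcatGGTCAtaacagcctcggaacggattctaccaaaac
This Esr1 window held 1 such site, the Pgr window held 0, and the other Esr1 window of the table, at chr10:4709908-4710207 (plus strand), held 0. Among 32851 promoter windows of this length, 40.5% hold at least 1 such site, so these matches only describe the letters shown. In GENCODE M21 no other gene overlaps either receptor gene or lies within 2000 bases of it.

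Esr1 was sparse in newborn epithelium and abundant from pnd14 on. Levels are counts per 1000000 (CPM), the gene's counts summed over the cells of an age, divided by all counts of those cells. Esr1 had 10 counts at pnd0, 66 at pnd7, 31 at pnd28 and 41 at pnd56, and its count was highest at pnd14, among 268815 counts of all genes. Its level was 17.5 CPM [8.37, 32.1] at pnd0, 94.03 CPM [72.7, 119.6] at pnd7, 427.8 CPM [353.2, 513.5] at pnd14, 377.8 CPM [256.7, 536.3] at pnd28 and 514.8 CPM [369.4, 698.4] at pnd56. The level was thus lowest at pnd0, next at pnd7, and highest at the 3 older ages, whose intervals overlap one another and do not reach that of pnd7.

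A log2 ratio below puts the later age over the earlier one, and a gene is counted as higher or lower where its level differs by at least 2-fold, for genes with at least 20 counts over both sides. Esr1 was 5.38-fold higher at pnd7 than at pnd0, a log2 ratio of 2.43 [1.46, 3.55], above the ratios of 99.6% of all genes tested. Of all genes 5.05% were at least 2-fold higher and 7.68% lower in that comparison. At pnd14 Esr1 was 4.55-fold higher than at pnd7, with a log2 ratio of 2.19 [1.74, 2.65], against 9.92% of genes at least 2-fold higher and 17.2% lower. Later steps were smaller than 2-fold, with intervals that include 0. The log2 ratio was −0.18 [−0.80, 0.40] for pnd28 over pnd14, where 12.1% of genes were higher and 23.7% lower, and 0.45 [−0.26, 1.17] for pnd56 over pnd28, where 14.5% were higher and 16.7% lower. From birth to adulthood, pnd56 over pnd0, Esr1 was 29.5-fold higher, 4.88 [3.86, 6.04] on the log2 scale, with 10.1% of genes higher and 27% lower.

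**Figure D1:**
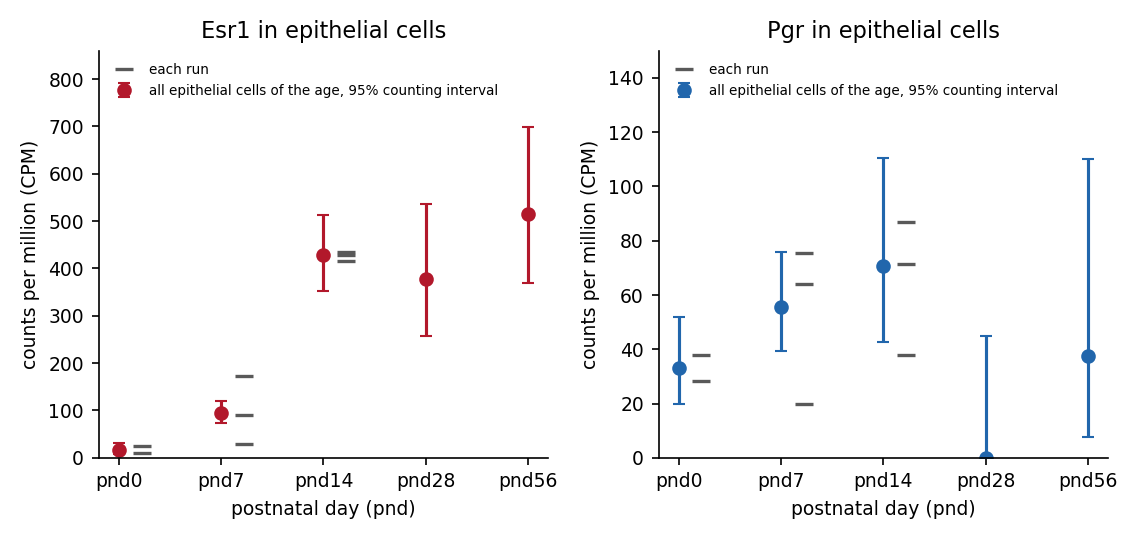
Levels of Esr1 (left) and Pgr (right) in epithelial cells by age, in CPM on linear axes that differ between panels; points are all cells of an age with the 95% counting interval, grey dashes the single runs of ages with more than 1 run. Esr1 stands between 377.8 and 514.8 CPM from pnd14 on, while Pgr stays below 80 CPM at each age and has no count at pnd28.

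The runs of pnd14 lay close together and those of pnd7 did not. Esr1 stood at 24.2 and 10.6 CPM in the 2 runs of pnd0. At pnd7 it stood at 29.9 CPM in run 5, 172.1 in run 6 and 90.8 in run 10, so the lowest run of pnd7 was near the higher run of pnd0. At pnd14 it stood at 433.9, 415.6 and 427.9 CPM in runs 3, 4 and 7, each above every run of pnd7. The closeness of run 4 rests on 1 of its 20 cells, which held 11 of its 22 Esr1 counts. Esr1 was counted in 25% of the cells of run 4, against 37.5% in run 3 and 37.9% in run 7. A pair of cells in run 6 with 12 and 8 counts held much of its Esr1. Leaving out 1 run moved the pnd7 over pnd0 ratio to 1.83 on the log2 scale without run 6 and to 3.15 without run 1, and the pnd14 over pnd7 ratio to 2.78 without run 6. The pnd56 over pnd0 ratio was 5.60 without run 1.

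More cells carried Esr1 at the older ages. It was counted in 6 cells at pnd0 (3.51% of cells [1.30, 7.48]), in 26 at pnd7 (10.04% [6.66, 14.4]), in 48 at pnd14 (35.8% [27.7, 44.6]), in 18 at pnd28 (37.5% [23.9, 52.7]) and in 21 at pnd56 (47.7% [32.5, 63.3]). Deeper cells show a gene more often, so each cell was also thinned at random to 1500 counts, which leaves 94.7%, 94.98%, 64.2%, 54.2% and 54.5% of the cells. At this equal depth the shares were 3.09%, 7.72%, 31.4%, 30.8% and 45.8%. The order of the ages was the same but for pnd14 and pnd28, whose shares were close on both scales.

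Within an age Esr1 was uneven among cells. At pnd7 12 cells had 1 count, 4 had 2 and 10 had 3 or more, and 1 cell held 12 of the 66 counts. At pnd14 20 cells had 1 count, 15 had 2 and 13 had 3 or more, with a highest count of 11. The variance over the mean of the counts per cell was 1.95, 4.67, 3.33, 1.74 and 2.07 over the 5 ages, a ratio that is 1 where cells share 1 level and depth. Differences in depth between cells add to these ratios.

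**Figure D2:**
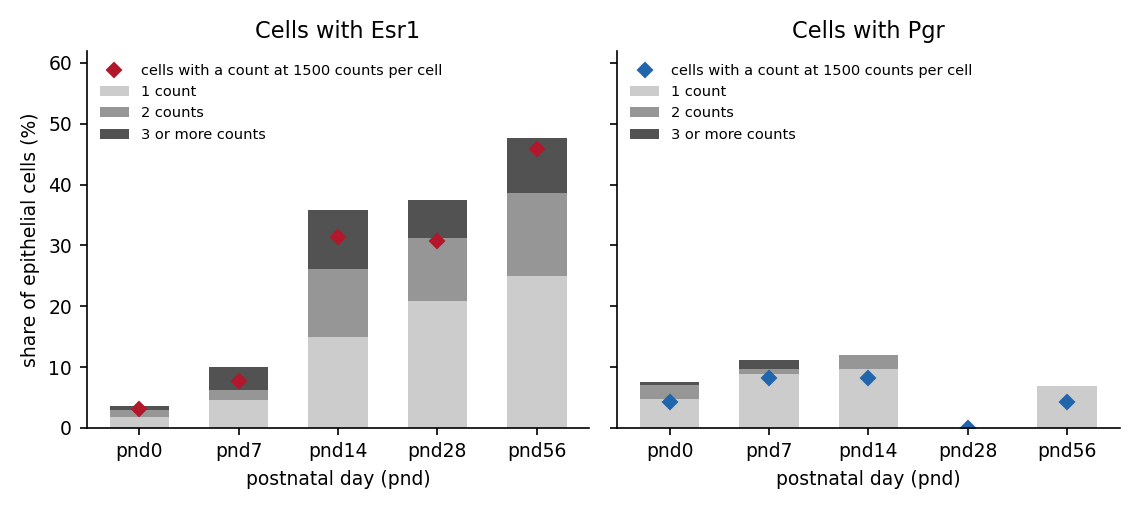
Share of epithelial cells with Esr1 (left) and Pgr (right) by age, in percent; grey bars stack cells with 1, 2 and 3 or more counts at full depth, and diamonds give the share of cells with a count after thinning to 1500 counts per cell. Esr1 reaches 47.7% of cells at pnd56 and Pgr at most 11.9%, at pnd14.

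Markers of stroma moved with age in the same cells. In epithelial cells the shares of all counts that fell on stroma and fibroblast markers were 0.0213%, 0.0311%, 0.0577%, 0.329% and 0.404% at the 5 ages, with 9, 9, 7, 9 and 8 of 12 genes counted. The list genes differed. Hand2, a defining transcription factor of uterine stroma, had no count in these cells at any age. The matrix gene Dcn led the list at pnd28, with 120 counts, and was counted in 58.3% of the epithelial cells there. Cells with 5 or more such counts were 9, 12, 5, 11 and 11 of the epithelial cells. At pnd28 they had 3 Esr1 counts in 11 cells, against 28 in the other 37, and at pnd56 17 in 11, against 24 in the other 33. Without them the pnd56 over pnd0 log2 ratio of Esr1 was 4.53 and that of pnd14 over pnd7 was 2.24. Red cell genes held 1.37% of counts at pnd0, which lowers the CPM of other genes there by about that share.

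Pgr was sparse at each age and did not follow Esr1. It had 19, 39, 19, 0 and 3 counts at the 5 ages. These are 33.2 CPM [19.98, 51.8] at pnd0, 55.6 CPM [39.5, 75.96] at pnd7, 70.7 CPM [42.6, 110.4] at pnd14, 0 CPM at pnd28 and 37.7 CPM [7.77, 110.1] at pnd56. At pnd28 the count of 0 in 82046 allows up to 36.6 CPM by a floor of 3 counts, and up to 44.96 CPM by the exact 95% interval. There 0 of 48 cells had a Pgr count [0, 7.397%], which does not limit how many of these shallowly read cells express it. The intervals of neighbouring ages overlap, though those of pnd14 and pnd28 meet only between 42.6 and 44.96 CPM.

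No step of Pgr was called at 2-fold. Its log2 ratio was 0.74 [−0.08, 1.62] for pnd7 over pnd0 and 0.35 [−0.53, 1.17] for pnd14 over pnd7. At pnd28 it was at least 1.93-fold lower than at pnd14, a bound of −0.95 on the log2 scale, so a 2-fold or larger difference is possible there. That bound was −0.07 at 1000 counts per cell and −0.44 without the stroma-marked cells, so the pnd28 value limits Pgr only loosely. For pnd56 over pnd0 the ratio was 0.18 [−2.22, 1.95]. No ratio was formed for pnd56 over pnd28, since both ages had 3 counts or fewer.

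The runs spread as widely as the ages. Pgr stood at 37.97 and 28.3 CPM in the runs of pnd0, at 64.1, 19.7 and 75.7 CPM in runs 5, 6 and 10 of pnd7, and at 86.8, 37.8 and 71.3 CPM in runs 3, 4 and 7 of pnd14. Run 6, which had the most Esr1 at pnd7, had the least Pgr. Pgr was counted in 7.602%, 11.2%, 11.9%, 0% and 6.82% of cells, or 4.32%, 8.13%, 8.14%, 0% and 4.17% at equal depth. No cell had more than 3 counts.

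Of the counts of both receptors Esr1 took 34.5% [17.9, 54.3] at pnd0, 62.9% [52.9, 72.1] at pnd7, 85.8% [78.8, 91.2] at pnd14, all 31 at pnd28 (interval from 88.8%) and 93.2% [81.3, 98.6] at pnd56. The interval at pnd0 includes equal shares, and those of the later ages lie above them, so most pooled counts were Esr1 from pnd7 on. At pnd7 the runs differed. Run 6 had 35 Esr1 and 4 Pgr counts, run 10 had 24 and 20, and run 5 had 7 and 15. Esr1 was thus not the majority in each run of pnd7. A count depends on how well the 3′ end of each transcript is captured, so the share compares ages and not the amounts of the 2 mRNAs.

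The counting intervals for Pgr in cells with and without Esr1 overlapped. At pnd14 and equal depth Pgr was counted in 3 of 27 Esr1-positive cells (11.1% [2.35, 29.2]), against 4 of 59 Esr1-negative cells (6.78% [1.88, 16.5]). At full depth the counts were 8 of 48 against 8 of 86. At pnd7 and equal depth it was counted in 1 of 19 Esr1-positive cells, against 8.37% of Esr1-negative cells. Over all ages at full depth it was counted in 10.1% [5.32, 16.95] of Esr1-positive cells (12 cells), against 9.12% [6.83, 11.9] of Esr1-negative cells (49 cells). With at most 12 cells holding both, a difference of a few percentage points was not detectable at this depth.

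At pnd14 muscle-marked cells carried Esr1 at least as often as epithelial cells and had almost no Pgr. Esr1 had 51 counts in 39 muscle-marked cells, or 598.4 CPM [445.5, 786.7], against 427.8 CPM in epithelial cells. The log2 ratio was 0.48 [−0.02, 0.97], below 2-fold. It was counted in 19 of 39 muscle-marked cells (48.7%), against 35.8% of epithelial cells, and in 15 of 27 (55.6% [35.3, 74.5]), against 27 of 86 (31.4% [21.8, 42.3]), at equal depth. In each run the muscle-marked cells stood above the epithelial ones, at 540.7 against 433.9 CPM in run 3, 726.4 against 415.6 in run 4 and 603.9 against 427.9 in run 7. The run 4 value came from 4 muscle-marked cells with 9 Esr1 counts, 6 of them in 1 cell. Of all genes 11.3% were at least 2-fold higher and 16.7% lower in muscle-marked cells.

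Pgr had 1 count in the muscle-marked cells, or 11.7 CPM [0.297, 65.4], against 19 counts and 70.7 CPM in epithelial cells. The log2 ratio of −2.59 [−7.97, 0.06] rests on that 1 count, in run 4, and lay between −0.94 and −1.70 with 1 run left out or at 1000 counts per cell, where it is a bound from the floor or a ratio from fewer cells. Its interval includes 0.

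Nr2f2 and Gper1 differed more between the classes. Nr2f2 (COUP-TFII), a nuclear receptor of mesenchyme and uterine stroma, stood at 1361 CPM in muscle-marked cells, against 234.4 CPM in epithelial cells, a log2 ratio of 2.54 [2.08, 3.004]. Gper1, a membrane receptor for oestrogen, had 0 counts in muscle-marked cells, against 60 in epithelial cells. Its log2 ratio was −2.66 by the floor of 3 counts, with an exact interval from −2.32 downward. Thra, a thyroid hormone receptor, was at 457.6 CPM, against 435.2.

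The muscle-marked cells were not free of epithelial genes, nor of stromal ones. At pnd14 Krt18 was counted in 71.8% of them, against 97.8% of epithelial cells, and its log2 ratio was −0.75 [−0.94, −0.57]. Stroma markers held 0.235% of their counts, against 0.0577%, with Dcn, a matrix proteoglycan, at 563.2 CPM against 100.4 and Wt1, a transcription factor of stroma and mesothelium, at 516.2 against 141.4. Esr1 stood at 648.3 CPM in the 28 muscle-marked cells with Krt18 and at 454.8 CPM [218.1, 836.4] in the 11 without it. Whether a muscle-marked well held 1 cell or several was not tested.

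The threshold of 5 counts was not a gap in Esr1. At pnd14 Esr1 stood at 911.9 CPM in the 5 cells with 3 or 4 muscle-marker counts and at 668.8 CPM [402.6, 1044] in the 12 cells with 5 to 9. It stood at 425.8 CPM in the cells with none and at 563.2 CPM in the 27 with 10 or more. At pnd7 the 8 muscle-marked cells were marked by Myl9 in 44 of their 47 counts, all had Krt18 and 75% had Epcam, so the data there go against a muscle class. They held 2 Esr1 counts. At pnd28 Esr1 stood at 352.1 CPM in 8 muscle-marked cells, against 377.8 CPM, with a ratio of −0.10 [−1.82, 1.27].

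**Figure D3:**
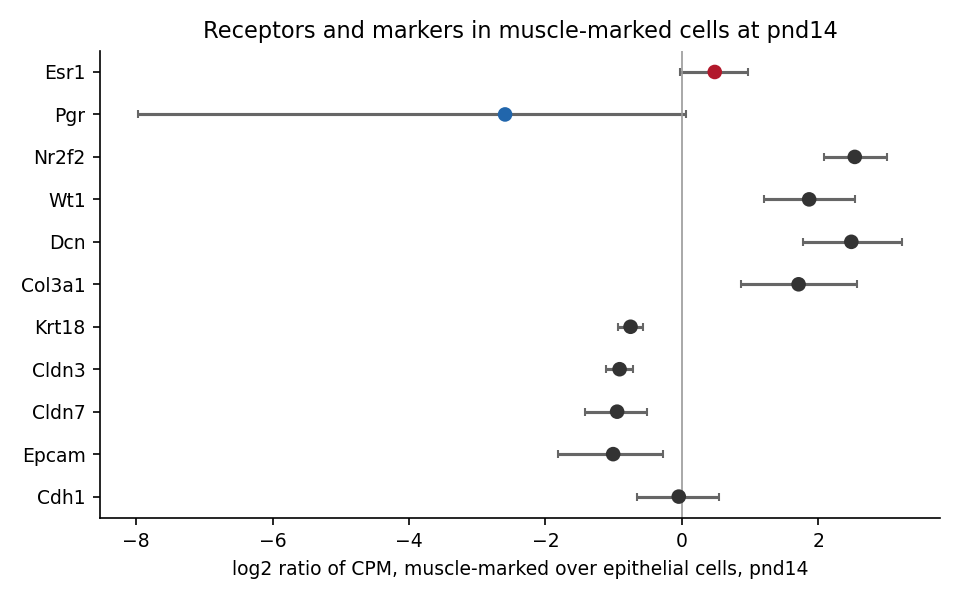
Log2 ratio of CPM in muscle-marked over epithelial cells at pnd14, with 95% counting intervals, for Esr1 (red), Pgr (blue), another receptor (Nr2f2), stromal genes (Wt1, Dcn, Col3a1) and epithelial genes (Krt18, Cldn3, Cldn7, Epcam, Cdh1). Esr1 lies at 0.48 with an interval that just includes 0, Nr2f2 at 2.54 and Krt18 at −0.75.

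Among the other steroid and related receptors none was at least 2-fold higher both at pnd7 than at pnd0 and at pnd14 than at pnd7, as Esr1 was. Esr2, the second oestrogen receptor, had 3 counts in all epithelial cells. Nr3c2, the mineralocorticoid receptor, was a gene of the newborn, at 62.9 CPM at pnd0, 8.55 at pnd7, 3.72 at pnd14 and 0 later, with a log2 ratio of −2.88 for pnd7 over pnd0. Gper1 stood at 137.95, 108.3, 223.2, 60.9 and 25.1 CPM over the 5 ages, and at pnd14 its runs ranged from 56.7 to 318.2. Nr2f2 stood at 134.5, 176.7, 234.4, 85.3 and 426.9 CPM, with 14 of its 34 counts at pnd56 in 1 cell. Leaving out Esr1 and Pgr, the receptor list had 20 genes with a row. For pnd7 over pnd0 the numbers at least 2-fold higher and lower were 1 and 3 of 11 measured and 1 and 3 of 10 for pnd14 over pnd7. Over all genes the shares were 5.05% and 7.68% in the first and 9.92% and 17.2% in the second of these. They were 1 and 2 of 7 when pnd28 was set over pnd14, 1 and 0 of 3 for pnd56 over pnd28, and 1 and 4 of 10 for pnd56 over pnd0, against 12.1% and 23.7%, 14.5% and 16.7%, and 10.1% and 27% of all genes.

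Genes known to respond to oestrogen in the uterus mostly stood higher from pnd28 on, later than Esr1. Of 31 with a row, 5 of 17 measured were at least 2-fold higher and none lower for pnd7 over pnd0, then 4 higher and 6 lower of 17 for pnd14 over pnd7. With pnd28 set over pnd14, 8 of 13 were higher and 1 lower, for pnd56 over pnd28 8 of 15 and 1, and for pnd56 over pnd0 12 of 17 and 2. Over all genes the shares higher in these 5 comparisons were 5.05%, 9.92%, 12.1%, 14.5% and 10.1%, and the shares lower 7.68%, 17.2%, 23.7%, 16.7% and 27%. The median log2 ratio of the list in those comparisons was 0.38, −0.33, 1.496, 1.63 and 2.99, against −0.03, −0.12, −0.22, 0.04 and −0.34 for all genes tested.

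Ltf, the antimicrobial protein lactotransferrin and a classic oestrogen target, stood at 22.7, 31.3, 442.7, 2048 and 2963 CPM over the 5 ages. At pnd14 14.9% of cells had it and 1 cell held 22.7% of the counts, while at pnd28 64.6% of cells had it. Clu, a secreted chaperone, stood at 244.5, 196.6, 435.2, 1950 and 1946 CPM, and Car2, a carbonic anhydrase, at 52.4, 225.1, 271.6, 853.2 and 3403. Muc1, a mucin of the luminal surface, was lowest at pnd14, at 204.6 CPM, and highest at pnd56, at 2122. Sprr2f, a cornified envelope protein gene, stood at 11.2 CPM at pnd14, 450.97 at pnd28 and 7094 at pnd56, where 84.1% of cells had it. Its reads can be shared with the closely similar Sprr2 genes, so its value is uncertain as that of 1 gene. The list did not move as 1 group, and its counts and medians do not separate genes that oestrogen raises from genes that it lowers. A fall of a member is therefore not read as a fall of the response. Wnt7a, a Wnt ligand of the epithelium, stood at 287.8 CPM at pnd7 and 75.3 at pnd56, and Lpar3, a lysophospholipid receptor needed for embryo spacing, at 204.6 CPM at pnd14 with no count at pnd28 or pnd56. Greb1, a direct ESR1 target in other tissues, had at most 19.2 CPM, at pnd0.

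Genes known to respond to progesterone had most of their higher members at pnd14. For pnd14 over pnd7 9 of 13 measured were at least 2-fold higher and 1 lower, with a list median of 1.92, against 9.92% and 17.2% of all genes and a median of −0.12. In the next step, pnd28 over pnd14, 4 of 13 were higher and 5 lower, against 12.1% and 23.7%. For pnd7 over pnd0 the numbers were 2 and 1 of 10 (5.05% and 7.68% of all genes), for pnd56 over pnd28 1 and 3 of 6 (14.5% and 16.7%), and for pnd56 over pnd0 4 and 3 of 9 (10.1% and 27%). Calb1, a calcium-binding protein, had 37 counts at pnd14 (137.6 CPM, 115.9 to 154.3 over the 3 runs) and none at any other age. Gata2, a transcription factor upstream and downstream of PGR in the uterus, stood at 185.1, 229.4, 866.8, 85.3 and 87.9 CPM, with a log2 ratio of 1.92 for pnd14 over pnd7 and −3.34 for pnd28 over pnd14. Lrp2, a large endocytic receptor, and Irg1, the enzyme that makes itaconate, were also highest at pnd14, at 85.6 and 115.3 CPM, though Irg1 was at 0 in 1 of the 3 runs. Ltf stands in both hormone lists. Pgr itself, at 70.7 CPM on 19 counts, was not 2-fold higher at pnd14.

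Over all lists together, the share of members at least 2-fold higher was above that of all genes in each comparison, and the share lower was above it in 2 of 5. Of the members measured 9 of 74 were higher and 5 lower for pnd7 over pnd0, 23 and 14 of 76 for pnd14 over pnd7, 18 and 13 of 66 when pnd28 was set over pnd14, 10 and 9 of 42 for pnd56 over pnd28, and 19 and 17 of 69 for pnd56 over pnd0. The shares higher were 12.2%, 30.3%, 27.3%, 23.8% and 27.5%, against 5.05%, 9.92%, 12.1%, 14.5% and 10.1% of all genes. The shares lower were 6.76%, 18.4%, 19.7%, 21.4% and 24.6%, against 7.68%, 17.2%, 23.7%, 16.7% and 27%. A share is not shown to be particular to these lists, whose members were chosen for their tie to the receptors.

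**Figure D4:**
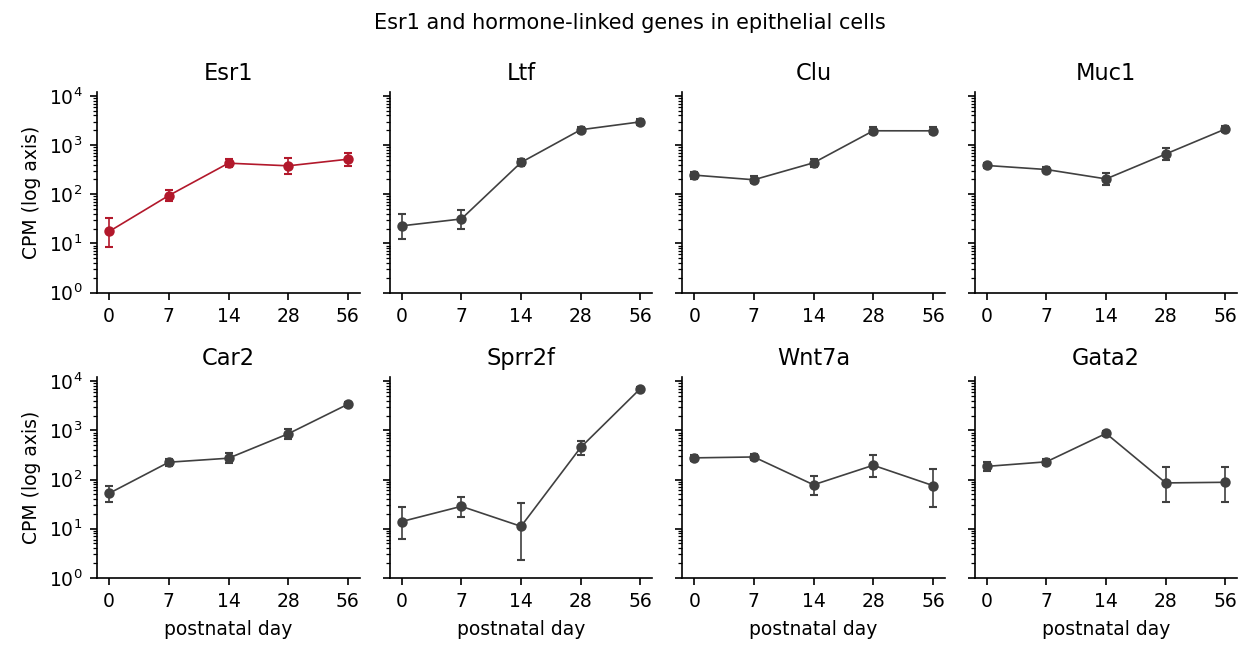
Levels by age in epithelial cells of Esr1 (red) and of 7 hormone-linked genes, in CPM on a log axis, with 95% counting intervals. Esr1 levels off at pnd14, Ltf, Clu, Car2 and Sprr2f stand highest at pnd28 or pnd56, and Gata2 peaks at pnd14 at 866.8 CPM.

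Which genes differ between cells with and without Esr1 was asked at pnd14, among epithelial cells thinned to 1500 counts. A cell was positive with 1 or more Esr1 counts left, which gave 27 positive and 59 negative cells, with median unthinned counts of 2165 and 2159. Of the positive cells 12 had a single count, so many negative cells may carry Esr1 unseen. Over 1406 genes with at least 20 counts, 9.46% were at least 2-fold higher and 12% lower in the positive cells. Krt18 and Epcam differed little, with log2 ratios of −0.11 [−0.34, 0.12] and −0.06 [−1.09, 0.88].

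The genes named here were ranked by the interval bound nearest to no difference, among those found in 10% or more of cells on the higher side and with the same direction in the runs with enough positive cells (runs 3 and 7). The condition on cells left out 4 genes with larger bounds, Astx4b, Astx1c, Astx4a and Astx4c, which had 48, 41, 35 and 25 counts in positive cells, against 0 in negative cells, each in 1 cell only. Such near-identical gene copies can share reads, so their values are uncertain, and they are named after their values were seen. Prpf38b, a splicing factor, had 24 counts in positive cells, against 6 in negative cells, a log2 ratio of 3.13. Git1, a scaffold and GTPase-activating protein for Arf proteins, had 33 counts against 10, and Lrrc47 25 against 9. Next came Rab3gap2, a subunit of a Rab3-regulating complex, Ift20, a ciliary transport protein, Spag7 and Abhd11os, a long non-coding RNA beside Abhd11. Ap1s2 and Ap1b1, subunits of the AP-1 adaptor of the trans-Golgi network, were also among the 12. Rab3gap2 had 11 of its 18 counts in positive cells in 1 cell. Ap1s2 had 10 of its 15 in 1 cell and was found in 11.1% of positive cells, so both rest largely on 1 cell. Kdf1, a regulator of keratinocyte differentiation, had 19 counts against 9, Dhrs3, a retinaldehyde reductase, 29 against 18, and Anp32b, a nuclear phosphoprotein, 24 against 15. Their log2 ratios ran from 1.81 for Anp32b to 3.13 for Prpf38b. Since these genes were selected for these values, the ratios are a description and overstate what other cells would show.

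Among the 12 lower genes Ddx58, the cytoplasmic RNA sensor RIG-I, had 0 counts in positive cells, against 25 in negative cells, Raver2 0 against 23 and Gpr107 0 against 22. Klf3, a transcription factor, had 1 count against 30, Maea, a subunit of a ubiquitin ligase, 2 against 31, and Trappc1, a vesicle tethering subunit, 2 against 31. Tsr3, Krtcap3, Slc2a12 (a sugar transporter), Bnip1 and Dcdc2b followed. Anpep, the aminopeptidase CD13, had 2 counts against 30, but with each of 4 other random seeds of the thinning its ratio lay above 0, between 0.13 and 1.21. Over those seeds all 12 higher genes stayed above 0, with 8 to 11 of them at least 2-fold, and 11 of the 12 lower genes stayed below 0, with 6 to 9 at least 2-fold. Without run 3 the shares over all genes tested were 10.8% higher and 12.1% lower, and without run 7 10.05% and 16.4%.

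At pnd7 these genes did not lie mostly on the same side as at pnd14. There, with 19 positive cells, 5 of the 11 higher genes that could be measured lay above 0, against 45.6% of all genes. None of them was 2-fold higher, against 10.3% of all genes. Of the 11 lower genes measured 6 lay below 0 and 5 above it, where 45.6% of all genes lay above 0. In that set 1 was at least 2-fold lower, against 14.4% of all genes. Prpf38b, first of the named genes at pnd14, had a log2 ratio of −0.62 [−2.94, 1.005] at pnd7, and Git1 −0.35 [−1.51, 0.62]. At pnd28 and pnd56, 1 and 0 of the 12 higher genes and none of the lower ones had enough counts. Between 7 Pgr-positive and 79 Pgr-negative cells of pnd14, 6 of the 12 higher genes lay above 0, against 45.4% of all genes, and 3 (Ift20, Ap1b1 and Spag7) were at least 2-fold higher, against 14.8%.

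**Figure D5:**
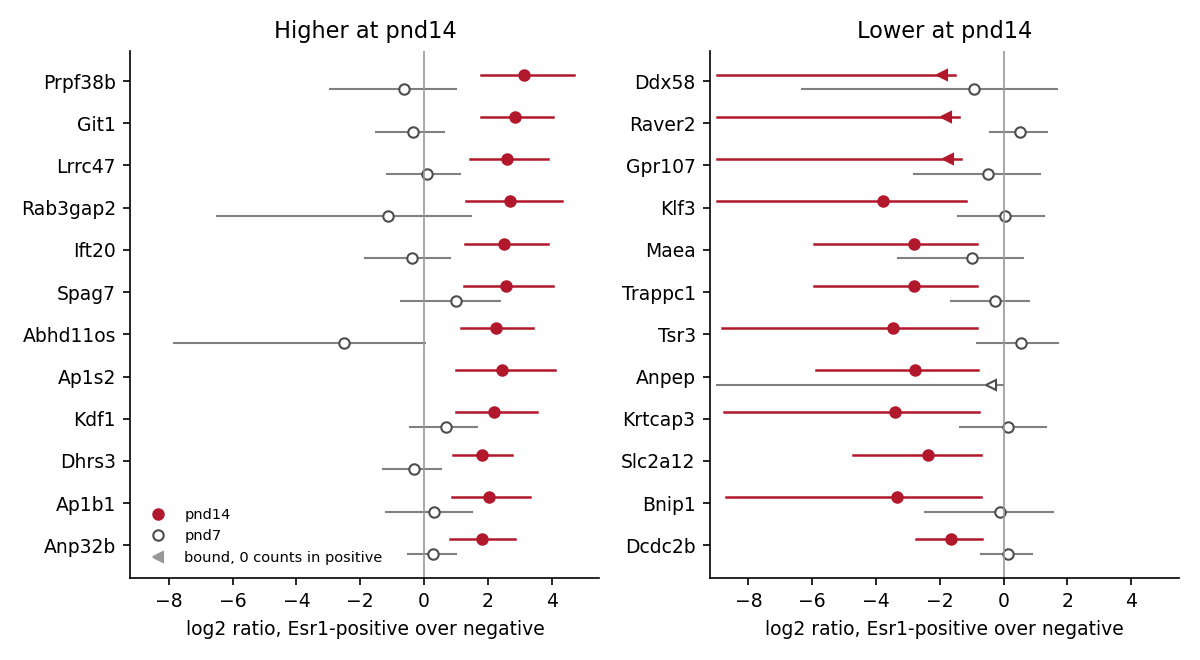
Log2 ratio of Esr1-positive over Esr1-negative epithelial cells for the 12 genes named as higher (left) and the 12 named as lower (right) at pnd14; filled red marks are pnd14, open marks pnd7, lines 95% counting intervals (drawn to −9 at most) and triangles bounds where positive cells had 0 counts. The pnd7 marks lie around 0, as with Git1 at −0.35 against 2.85 at pnd14.

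Genes tied to the receptors by role were 2-fold higher or lower at shares near those of all genes. Of 32 members of the 7 receptor lists measured, 2 were higher (6.25%, against 9.46% of all genes) and 5 lower (15.6%, against 12%). Those at least 2-fold higher in positive cells were Thra (1.08 on the log2 scale) and Phb, prohibitin, a corepressor of steroid receptors (642.0 against 203.4 CPM, 1.66 [0.74, 2.61]). Those lower were Nr2f2 (−1.19), Gata2 (543.2 against 1130 CPM, −1.06 [−1.79, −0.38]), Muc1 and Calb1 (both −2.19, on 2 counts against 20) and Lpar3 (−1.07). Of 7 oestrogen-responsive genes measured none was 2-fold higher and 2 were lower, with a median of −0.19, against −0.02 for all genes. Ltf had 0.52 [−0.40, 1.40] and Clu 0.74. Stroma markers had 5 counts in positive cells, against 37 in negative cells, a log2 ratio of −1.76 [−3.46, −0.41]. Immune markers had 12 counts against 10, a log2 ratio of 1.39 [0.05, 2.76], with 7 of the 12 in 1 cell. The part of either marker set in the ratios of single genes was not tested.

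Esr1 also stood higher in cells that carried genes of some epithelial subsets. At pnd14 the 13 cells with 5 or more counts of Ovgp1, the oviductal glycoprotein gene, had Esr1 at 741.2 CPM [439.3, 1171], in 8 cells, against 396.7 CPM [321.7, 483.9] in the other cells. At pnd7 the 62 cells with Aldh1a1, an enzyme of retinoic acid synthesis, had 176.03 CPM [120.4, 248.5], against 65.4 CPM [45.3, 91.3] in the others, with 12 of the 32 counts in 1 cell. At pnd56 the 22 cells with Ltf had 723.2 CPM [484.3, 1039], in 13 cells, and no Pgr, against 303.5 CPM [156.8, 530.1], in 8 cells, in the other 22, which held all 3 Pgr counts. At pnd14 Acot7-rich cells had 312.8 CPM [212.6, 444.0], against 494.9 CPM [394.8, 612.8] in the rest, but the shares of cells with Esr1 were close, at 36.4% against 35.6%. Cited4-rich cells had 460.1 CPM [338.1, 611.8], against 408.01 CPM [316.8, 517.3] in the rest. The CPM intervals of the pnd7 sets do not meet, and those of the other pairs do. At pnd7 the shares of cells with Esr1 were 12.9% [5.74, 23.9] with Aldh1a1 and 9.14% [5.51, 14.1] without it. Those intervals overlap.

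The 5 genes most like Esr1 and the 5 most like Pgr over the 10 runs are given here. Likeness was Pearson's r of log2(CPM + 10) over the 10 runs, for 3222 genes with at least 100 counts, and it describes runs that also share age, depth and cell makeup. Most like Esr1 were Tspan8, a tetraspanin (0.93), Wfdc18, a secreted protein of the whey acidic type (0.92), Fxyd3, a regulator of the sodium pump (0.91), Lgi4 (0.91) and Rnf128, a ubiquitin ligase (0.88). Fxyd3 and Lgi4 are overlapping neighbours with the same count in 294 of 296 cells, so they may share reads and are uncertain as separate genes. Tspan8 stood at 10.5, 49.9, 163.7, 280.3 and 188.3 CPM over the 5 ages and Rnf128 at 104.8, 199.5, 591.5, 402.2 and 1570. Most like Pgr were Fxr1, an RNA-binding protein (0.95), Cep89, a centrosomal protein (0.95), Atic, an enzyme of purine synthesis (0.93), Mmgt2 (0.91) and Xrn1, an RNA exonuclease (0.90). Each of these 5 was lowest at pnd28, where Cep89 and Mmgt2, like Pgr, had no count. Between Esr1 and Pgr r was −0.08.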

How the data were processed

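In CEL-seq, RNA of single cells is amplified linearly by transcription in vitro and sequenced at the 3′ end. The deposited table gives raw counts, whole numbers with another total in each cell. The submitters' processing notes name TopHat, Cuffnorm and mm9, without roles or versions, and the collapse of molecular identifiers is not stated there. Total counts per cell ran from 586 to 9332, and 92.3% of values were 0. Cells were pooled by labelled age, since no animal is named. With 1 sample per age there is no test. Intervals at 95% are exact Poisson for levels, exact Clopper-Pearson for shares and exact conditional binomial for ratios, and they cover counting error only. A count of 0 was set to a floor of 3 counts per group, giving bounds, and no ratio was given where both sides had 3 counts or fewer. A floor above the other side gave no direction. Thinning drew 1500 counts per cell without replacement (seed 11). Genes entered with at least 20 counts over both sides.

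Named genes of Esr1-positive cells needed a count in at least 10% of cells of the higher set and 1 direction in each run with 5 or more positive cells, and the first 12 each way were taken. Members of the 7 receptor lists and of the marker lists could be named with their values, and so could the first 5 genes by likeness. The members, lists and rules were chosen with earlier results of these data known. Greb1, Irg1 and the other list genes shown with run or cell values were picked after their values were seen. The ratio and interval code was tested on simulated data. Alternatives changed depth, scaling, the muscle threshold, filters, seeds and single runs. Python 3.11.15, numpy 2.4.6, scipy 1.17.1 and pandas 2.3.3 were used.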

Additional observations from a re-analysis of the deposited data

How the results depend on the processing

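The 10 log2 ratios and shares of Esr1 and Pgr, and the counts and shares of genes, were recomputed under each alternative, and 28 values moved. Esr1 stayed at least 2-fold higher for pnd7 over pnd0 (1.83 to 3.34), pnd14 over pnd7 (1.76 to 2.78) and pnd56 over pnd0 in each. Leaving out 1 run gave 1.76 to 2.78 for Esr1 at pnd14 over pnd7, 9.80% to 10.8% of genes higher and 12.1% to 16.4% lower in Esr1-positive cells (75 and 84 genes higher without runs 7 and 3 and 94 lower without run 3, where fewer genes could be tested), and 0 to 10 percent of Esr1-positive pnd7 cells with Pgr. The Pgr bound for pnd28 was −0.067 at 1000 counts per cell and −0.44 without stroma-marked cells. With at least 50 counts, 12 genes (2.86%) were higher and 22 (5.25%) lower in Esr1-positive cells.

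List members counted over the 5 comparisons in their order above changed with the filter. With at least 50 counts they were 3, 14, 7 and 6 higher in the first 4, and 3, 9, 5, 2 and 11 lower. With at least 1 count they were 15 higher and 12 lower for pnd7 over pnd0, 30 higher for pnd28 over pnd14 and 26 lower for pnd56 over pnd28. At 1.5-fold they were 18 higher and 8 lower for pnd7 over pnd0, and 20 and 26 lower for pnd28 over pnd14 and pnd56 over pnd0. Thinned, they were 11 higher and 8 lower for pnd28 over pnd14, 1 lower for pnd56 over pnd28, and 11 higher and 8 lower for pnd56 over pnd0. Named genes of Esr1-positive cells reversed in 8 of 312 single values: Anpep at 0.53 at 1000 counts per cell and at 1.21, 0.13, 0.39 and 0.90 with the other seeds, Ift20 at −0.014 and Ap1s2 at −0.50 at 1000 counts per cell, and Ap1s2 at 0 without Ovgp1-rich cells. The cause was not tested. No paired analysis was possible because the ages share no replicate and no test was made. Depth limits Pgr, with 0 to 39 counts per age.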

Other observations

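Genes of the proteins that hold or modify the receptors were 2-fold lower in the adult than in the newborn about as often as all genes. Of the chaperones that keep steroid receptors ready to bind, 7 were measured for pnd56 over pnd0, with 0 at least 2-fold higher and 3 lower, and of the coactivators and corepressors 1 of 13 was higher and 2 lower, against 10.1% and 27% of all genes. Hsp90ab1, the constitutive form of HSP90, stood at 646.1, 588.4, 290.2, 219.4 and 238.6 CPM over the 5 ages. Hspa4, a partner of HSP70, stood at 137.6 CPM at pnd14 and had no count at pnd28. Fkbp4, a co-chaperone that PGR needs in the mouse uterus, had at most 12.2 CPM, at pnd0, and Fkbp5, a gene that glucocorticoid and progesterone induce, had at most 12.2 CPM, at pnd28.

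Among coactivators and corepressors 4 of 15 measured were at least 2-fold higher and 2 lower for pnd14 over pnd7, against 9.92% and 17.2% of all genes. Ncoa3, a p160 coactivator, stood at 57.6, 62.7, 70.7, 195.01 and 138.1 CPM, and Ncor1, a corepressor, at 137.95, 119.7, 249.2, 134.1 and 37.7. Of the transcription factors that work beside the receptors, Fos was among the most abundant, at 3279, 3760, 8482, 9665 and 4206 CPM, and Xbp1 stood highest at pnd28, at 365.6. Hsd17b4, an enzyme that oxidises oestradiol, stood at 169.5 CPM at pnd7 and at 50.2 CPM at pnd56.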
